A study of Mus musculus with 4 samples.

Results

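A set of 150 genes was taken whose read counts were lower in both TAK-931-treated J558 allografts than in both vehicle-treated ones. Counts were expressed as CPM, the count of a gene divided by the summed count of its library and multiplied by 1e6. Of the 24421 genes in the count tables, 9663 had at least 5 CPM in both vehicle libraries once ribosomal protein, proteasome, NADH dehydrogenase and histone genes with the name prefixes Rpl, Rps, Psm, Nduf and Hist were left out. A gene was called lowered when its higher TAK-931 CPM was at most 0.67 times its lower vehicle CPM. This held for 641 of the 9663 genes (6.63%), and the 150 with the smallest ratio are described here. The members were thus chosen by the CPM of all 4 libraries, so the difference between the groups in these genes is a description and carries no test.

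The libraries were made from whole tumours on day 6. The J558 line, a plasmacytoma of the mouse that the labels call a B lymphocyte, was grown under the skin of female BALB/c mice with an intact immune system. The vehicle group (Vehicle-1 and Vehicle-2) was given 0.5% methylcellulose, and the TAK-931 group (TAK-931-1 and TAK-931-2) was given TAK-931, an inhibitor of the replication kinase CDC7, at 60 mg/kg once daily by mouth. The labels number the allografts of each group, the study plots tumours of individual mice, and each library is taken here as the tumour of 1 mouse. An allograft holds host immune and stromal cells beside the J558 cells. In bulk RNA of this kind, fewer cells of a type and less RNA per cell cannot be told apart.

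Total counts were between 16487902 and 19589339 per library. The 14 plasma cell and J558 markers were all detected at 5 CPM or more in both vehicle libraries. The treated libraries differed in cell type markers: summed T cell markers stood at 22.1 times the vehicle mean in TAK-931-1 and 2.07 times in TAK-931-2, and summed plasma cell and J558 markers at 0.388 and 1.21 times. Cdc7, the gene of the drug's target, had 22.8 and 21.4 CPM in Vehicle-1 and Vehicle-2 and 20.7 and 22.1 CPM in TAK-931-1 and TAK-931-2, and Mcm2, which encodes a substrate of the kinase, had 201 and 189 CPM in Vehicle-1 and Vehicle-2 and 134 and 188 CPM in TAK-931-1 and TAK-931-2.

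Cells that run short of amino acids, or whose endoplasmic reticulum is overloaded, slow translation through phosphorylation of the initiation factor eIF2 and make more of the transcription factor ATF4. ATF4 binds composite sites in DNA and turns on genes that take up and make amino acids, charge tRNAs and feed glutathione synthesis, together with brakes on the response such as Trib3. Plasma cells and plasmacytomas secrete large amounts of antibody and rely on this supply.

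Of the 6 genes with the smallest ratio, 3 belong to this pathway, namely Trib3, Chac1 and Adm2. Trib3, a pseudokinase that is induced by ATF4 and restrains it (chromosome 2, 152337425 to 152344060, mm10), had 73.5 and 51.3 CPM in Vehicle-1 and Vehicle-2 and 2.45 and 5.09 CPM in TAK-931-1 and TAK-931-2. Both treated libraries lay far below both vehicle libraries, and the ratio that ranked the genes, 0.0993, was the smallest of the 9663. Chac1, which breaks down glutathione (chromosome 2, 119351242 to 119354327), had 219 and 164 CPM in Vehicle-1 and Vehicle-2 and 6.84 and 23.5 CPM in TAK-931-1 and TAK-931-2. It stood at 0.0357 and 0.123 of the mean of the vehicle pair in TAK-931-1 and TAK-931-2, the lowest value of any of the 150 genes in TAK-931-1. The log2 fold change fitted by edgeR was −4.08 (SE 0.47) for Trib3 and −3.70 (SE 0.67) for Chac1, from 2 libraries per group. Adm2, a peptide hormone of the calcitonin family that ATF4 induces (chromosome 15, 89322899 to 89324730), had 35.4 and 23.9 CPM in Vehicle-1 and Vehicle-2 and 1.63 and 6.55 CPM in TAK-931-1 and TAK-931-2.

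**Figure D1:**
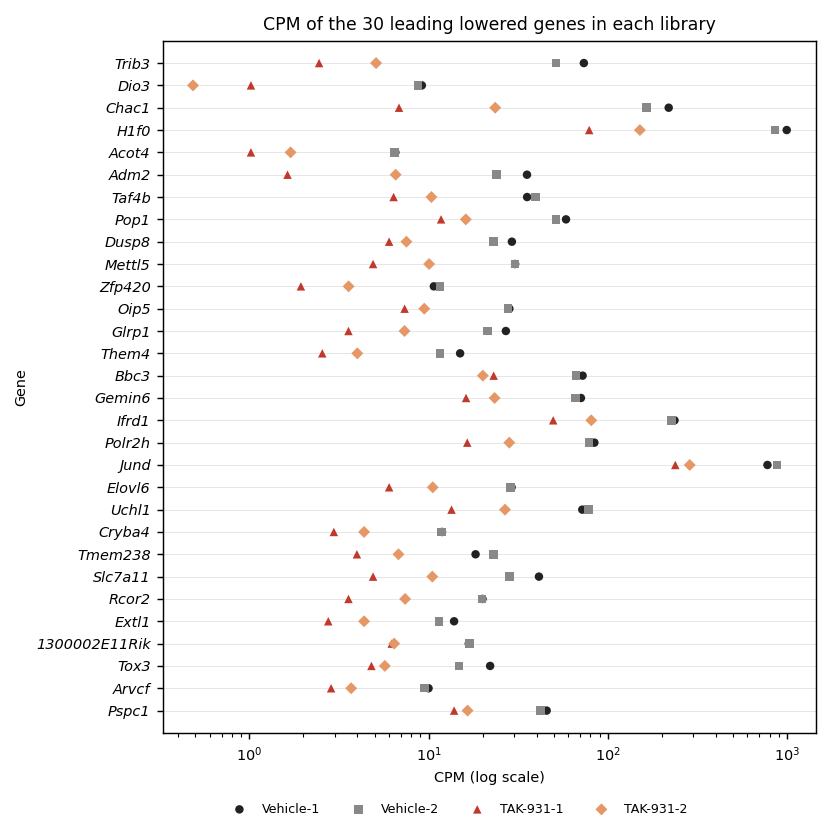
CPM of the 30 genes with the smallest ratio, on a log axis, with 1 symbol per library (circles Vehicle-1, squares Vehicle-2, triangles TAK-931-1, diamonds TAK-931-2). Each row shows both treated symbols left of both vehicle symbols, as the choice of genes requires. TAK-931-1 is the lower treated library in all rows except those of Dio3 and Bbc3.

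Upstream stretches of 4 lowered genes of this pathway are shown because each holds the letters TGATGNAA, the ATF4 composite site without its last base, on one strand or the other. The stretches are 120 bases long, come from RefSeq promoter windows of GRCm38.p6, read 5′ to 3′ along the strand of the gene, and carry the matching letters in capitals. They lie at chr2:119350992-119351111 (plus strand) for Chac1, chr3:50443614-50443733 (minus strand) for Slc7a11, chr6:7693210-7693329 (minus strand) for Asns and chr14:55540146-55540265 (plus strand) for Pck2.

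Chac1: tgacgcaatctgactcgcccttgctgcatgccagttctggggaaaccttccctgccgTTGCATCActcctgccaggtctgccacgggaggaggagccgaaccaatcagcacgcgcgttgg

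Slc7a11: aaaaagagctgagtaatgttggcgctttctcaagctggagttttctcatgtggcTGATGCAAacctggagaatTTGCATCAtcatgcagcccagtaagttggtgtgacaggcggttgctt

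Asns: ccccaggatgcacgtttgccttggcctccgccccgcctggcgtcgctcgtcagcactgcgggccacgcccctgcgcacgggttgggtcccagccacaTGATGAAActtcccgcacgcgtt

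Pck2: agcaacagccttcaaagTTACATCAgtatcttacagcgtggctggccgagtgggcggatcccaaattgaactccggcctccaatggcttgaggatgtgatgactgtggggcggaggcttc

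The first matching base lies 193 bases before the start site in Chac1, 23 before it in Asns and 103 before it in Pck2. Slc7a11 holds a pair of matches, 66 and 47 bases before its start site, on opposite strands. Trib3 has a match 14 bases past its start site and Slc1a4 one 4 bases before it.

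Searched on both strands of the 300-base windows (250 bases before the start site to 50 after it), TGATGNAA was found in 6 of the 14 lowered genes of the amino acid and ATF4 list that had a window (42.86%). It was also found in 3 of the 14 genes of the list that were not lowered (21.43%), namely Got1, Nupr1 and Pycr1, and in Fgf21 and Vldlr, list genes under 5 CPM. The same letters were found in 2.66% of the 7477 genes at 5 CPM with a window, and in 5 of the 121 members with one (4.13%), namely 1600020E01Rik, Asns, Chac1, Slc7a11 and Trib3. The full site TGATGNAAT was in none of the members' windows, in 0 of the 14 lowered list genes and in 2 of the 14 that were not lowered (Nupr1 and Pycr1, 14.29%), as well as in Fgf21 and in 0.48% of the 7477. The shorter form was chosen after the longer had been searched. A match is a run of letters and not a measured binding site.

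The other members with roles in amino acid supply were transporters and enzymes. Slc7a11, which carries cystine into the cell in exchange for glutamate (chromosome 3, 50364936 to 50443613), had 41.3 and 28.2 CPM in Vehicle-1 and Vehicle-2 and 4.901 and 10.5 CPM in TAK-931-1 and TAK-931-2. Slc6a9, a glycine transporter (chromosome 4, 117835258 to 117869305), had 82.3 and 65.3 CPM against 11.9 and 31.8 CPM, here and below in the order Vehicle-1 and Vehicle-2 against TAK-931-1 and TAK-931-2. Its exons overlap those of Ccdc24 on the other strand, so its reads cannot be assigned with certainty.

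Asns, which makes asparagine (chromosome 6, 7675171 to 7693182), had 540.1 and 485 CPM against 51.97 and 245 CPM. Cth, which makes cysteine from cystathionine (chromosome 3, 157894248 to 157925063), had 159 and 139 CPM against 13.3 and 71.1 CPM. In both genes TAK-931-2 stood well above TAK-931-1, at 0.101 and 0.477 of the mean of the vehicle pair in TAK-931-1 and TAK-931-2 for Asns and 0.0891 and 0.477 for Cth. Atf5, a transcription factor of the same stress response whose exons overlap Nup62, had 127 and 116 CPM against 29.00 and 56.4 CPM, and Stc2, a secreted glycoprotein, had 18.6 and 16.8 CPM against 3.37 and 8.73 CPM. The 9 genes of this role had median folds of 0.101 for TAK-931-1 and 0.431 for TAK-931-2.

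A hand-written list of amino acid supply and ATF4 target genes gave the wider pathway. Of its 37 genes, 32 had at least 5 CPM in both vehicle libraries, and 18 of these were lowered (56.2%, beside 6.63% over all genes). The remaining list genes stood under that limit and could not count as lowered. Among them, fitted log2 fold changes were 3.30 for Slc38a1, 2.51 for Slc7a3, 2.19 for Vldlr and 1.95 for Gdf15. Fgf21 had −2.35, and the SE of these genes lay between 0.91 and 1.72. Besides 7 members of the set, the lowered genes included Slc3a2, Eif4ebp1, Atf4, Slc1a4, Gpt2, Pck2, Sesn2, Slc7a5, Slc1a5 and Mthfd2. Without genes also in the one-carbon, NRF2, p53, translation, unfolded protein response, hypoxia or AP-1 lists, 13 of 22 were lowered (59.1%). In 28 of the 32 genes (87.5%) both treated libraries lay below both vehicle libraries, which held for 3720 of the 9663 genes (38.5%). The list's median log2 ratio to the vehicle mean was −2.0 for TAK-931-1 and −0.84 for TAK-931-2, where the medians over the 9663 genes were −0.30 and −0.03.

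Atf4 itself had 639 and 592 CPM in Vehicle-1 and Vehicle-2 and 187 and 326 CPM in TAK-931-1 and TAK-931-2. Slc7a5 and Slc3a2, which together form the large neutral amino acid transporter, had 682 and 532 CPM against 95.2 and 334 CPM for Slc7a5 and 781 and 761 CPM against 267 and 406 CPM for Slc3a2. Pck2, the mitochondrial enzyme that makes phosphoenolpyruvate, had 1139 and 1104 CPM against 154 and 640.0 CPM. All were lower in both treated libraries, with TAK-931-2 between TAK-931-1 and the vehicle pair.

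Other parts of the list did not meet the ratio limit. Phgdh and Psat1, enzymes of serine synthesis, had 1063 and 1132 CPM against 199.6 and 742 CPM for Phgdh and 427 and 375 CPM against 105 and 300.4 CPM for Psat1, with TAK-931-2 below both vehicle libraries but above the limit. Ddit3, which encodes the pro-apoptotic factor CHOP, had 13.7 and 13.6 CPM against 20.1 and 7.28 CPM, and Cebpb, a partner of ATF4, had 94.6 and 84.05 CPM against 122 and 56.9 CPM. In Ddit3, Cebpb, Cebpg and Nupr1 TAK-931-1 lay above both vehicle libraries and TAK-931-2 below both. Ppp1r15a, which restarts translation by removing phosphate from eIF2, had 24.7 and 22.5 CPM against 21.95 and 21.2 CPM, all within a narrow range.

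**Figure D2:**
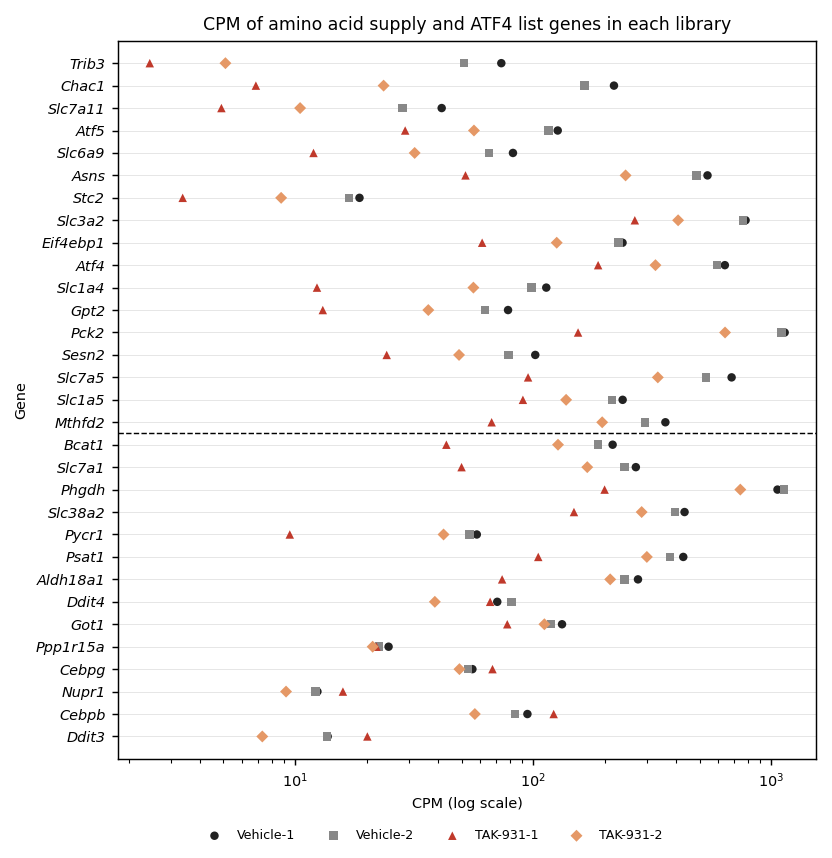
CPM of 31 of the 32 genes of the amino acid supply and ATF4 list at 5 CPM or more in both vehicle libraries, on a log axis, 1 symbol per library, ordered by the ratio that chose the set. The 17 genes above the dashed line met the 0.67 limit and the 14 below it did not; in the last 4 rows TAK-931-1 is the highest library.

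Genes of lipid, hormone and small-molecule metabolism made up 12 members. Dio3, the deiodinase that inactivates thyroid hormone (chromosome 12, 110279230 to 110281097), had 9.17 and 8.73 CPM in Vehicle-1 and Vehicle-2 and 1.02 and 0.485 CPM in TAK-931-1 and TAK-931-2, and it was the member with the lowest value in TAK-931-2, at 0.114 and 0.0542 of the mean of the vehicle pair in TAK-931-1 and TAK-931-2. Its treated values rest on few counts, down to 8 in TAK-931-2. Acot4, an acyl-CoA thioesterase of peroxisomes (chromosome 12, 84038379 to 84044723), had 6.53 and 6.46 CPM against 1.02 and 1.698 CPM, and Elovl6, which lengthens fatty acids (chromosome 3, 129532386 to 129638493), had 29.04 and 28.6 CPM against 6.02 and 10.6 CPM. The other members of this role were Txnrd3, Mboat2, Ccbl1, Cutc, Dnph1, Uprt, Xylb, Hpdl and Dhrs7b. The cholesterol synthesis list had 0 of 27 genes lowered, and the list of fatty acid and lipid synthesis had 1 of 23 (4.3%), Elovl6, where the share over all genes was 6.63%.

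Mitochondrial enzymes and carriers supplied 15 members, with median folds of 0.238 for TAK-931-1 and 0.434 for TAK-931-2. Them4, a thioesterase (chromosome 3, 94310132 to 94332532), led them with 14.99 and 11.6 CPM against 2.55 and 4.003 CPM. Slc25a15, the ornithine carrier of the urea cycle, had 25.1 and 28.2 CPM against 5.51 and 10.1 CPM, and Aldh4a1, which breaks down proline, had 75.5 and 77.5 CPM against 16.5 and 34.9 CPM. Coq3, an enzyme of ubiquinone synthesis, had 38.8 and 39.6 CPM against 15.5 and 15.3 CPM, and Pdf, which removes the formyl group of new mitochondrial proteins, had 40.9 and 41.4 CPM against 15.98 and 16.7 CPM. The treated libraries nearly coincided in Coq3 and Pdf, whereas TAK-931-1 was the lower in Slc25a15 and Aldh4a1. Acot2, the mitochondrial relative of Acot4 and near-identical to Acot1, had 21.1 and 17.5 CPM against 4.798 and 7.76 CPM, and its reads may be shared with that copy. Lipt2 and Iba57, which act in lipoate and iron-sulfur protein assembly, Nadk2, which makes mitochondrial NADP, Yars2, the mitochondrial tyrosine tRNA synthetase, Hibch, of valine breakdown, Lyrm4, Ccdc58, Mettl20 and Fam136a completed this role. The tricarboxylic acid cycle list had 0 of 27 genes lowered, and the list of respiratory complexes III to V had 1 of 50 (2.0%), beside 6.63% over all genes.

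RNA processing, tRNA and ribosome assembly accounted for 14 members. Pop1, the scaffold protein of the RNase P and RNase MRP enzymes (chromosome 15, 34495311 to 34530653), had 58.4 and 51.3 CPM in Vehicle-1 and Vehicle-2 and 11.7 and 16.1 CPM in TAK-931-1 and TAK-931-2. Gemin6, a subunit of the SMN complex that assembles spliceosomal particles (chromosome 17, 80224489 to 80228497), had 70.8 and 65.98 CPM against 16.2 and 23.4 CPM, and Polr2h, a subunit shared by RNA polymerases I, II and III (chromosome 16, 20717826 to 20722265), had 84.1 and 78.3 CPM against 16.4 and 28.2 CPM. Pspc1, a protein of paraspeckles (chromosome 14, 56722449 to 56778316), had 45.6 and 42.2 CPM against 13.9 and 16.5 CPM. In these 4 genes both treated libraries lay well under the vehicle pair and differed from each other by less than 2-fold.

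Nop58, Wdr12 and Mettl5 lay over 2-fold apart between the treated tumours. Nop58, a core protein of box C/D small nucleolar ribonucleoproteins (chromosome 1, 59685006 to 59711510), had 650.3 and 627 CPM against 136 and 327 CPM, and Wdr12, which matures the large ribosomal subunit (chromosome 1, 60076868 to 60098500) and overlaps Carf, had 224 and 236 CPM against 37.9 and 105 CPM. Srsf3, a splicing factor (chromosome 17, 29032660 to 29043372), had 520.2 and 536 CPM against 161 and 253 CPM. Mettl5, which methylates 18S ribosomal RNA (chromosome 2, 69871195 to 69885615) and overlaps Ssb, had 30.4 and 30.4 CPM against 4.901 and 10.1 CPM. The tRNA enzymes Mettl1 and Thg1l were also members, as were Rpf1, Heatr3 and Mina.

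With members and other genes counted together, 10 of 86 genes of the ribosome biogenesis list (11.6%), 5 of 34 of the RNA polymerase I and III list (14.7%) and 7 of 39 of the tRNA synthetase list (17.9%) were lowered, beside 6.63% over all genes. Their median log2 ratios were −1.29, −0.81 and −1.46 in TAK-931-1 and −0.32, −0.25 and −0.41 in TAK-931-2, where all genes had −0.30 and −0.03. The lowered genes of the last list were the synthetases Yars2, a member, Dars, Farsb, Vars, Rars2 and Sars, and Aimp2, a scaffold protein of the synthetase complex. Farsb, the beta chain of the phenylalanine enzyme, had 316 and 276 CPM against 55.2 and 164 CPM.

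Transcription factors, chromatin proteins and arginine methyltransferases formed the largest role, with 25 members. H1f0, the linker histone H1.0 that accumulates in cells at rest (chromosome 15, 79028212 to 79030500), had 995 and 854 CPM in Vehicle-1 and Vehicle-2 and 78.7 and 151 CPM in TAK-931-1 and TAK-931-2. It stood at 0.0851 and 0.163 of the mean of the vehicle pair in TAK-931-1 and TAK-931-2, with a fitted log2 fold change of −3.04 (SE 0.39). H1f0, H3f3b and H2afx are histone genes that the name prefix did not leave out. H3f3b, which encodes histone H3.3 as H3f3a does (chromosome 11, 116021961 to 116024504), had 797 and 705 CPM against 359 and 284 CPM and was 1 of 14 members with TAK-931-1 as the higher treated library.

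Jund, the AP-1 subunit that is often high in resting cells (chromosome 8, 70697739 to 70700616), had 777 and 881 CPM in Vehicle-1 and Vehicle-2 and 238 and 286 CPM in TAK-931-1 and TAK-931-2, and the treated values were close together. Jund and Gadd45b were lowered among 27 genes of the AP-1 and immediate early list (7.4%), a share near the 6.63% of all genes. The list's median lay above the vehicle mean, at log2 ratios of 0.70 and 0.52 in TAK-931-1 and TAK-931-2. Ifrd1, a transcriptional coregulator (chromosome 12, 40203129 to 40223189), had 236 and 227 CPM against 49.6 and 80.8 CPM, Taf4b, a subunit of TFIID (chromosome 18, 14783245 to 14900359), had 35.5 and 39.5 CPM against 6.38 and 10.4 CPM, and Rcor2, a corepressor that works with LSD1 (chromosome 19, 7269764 to 7275225), had 19.99 and 19.9 CPM against 3.57 and 7.399 CPM. Tox3, a high-mobility-group protein (chromosome 8, 90247112 to 90348252), had 22.05 and 14.8 CPM against 4.798 and 5.701 CPM, and Zfp420, a zinc finger protein (chromosome 7, 29859979 to 29877302), had 10.7 and 11.5 CPM against 1.94 and 3.58 CPM.

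The set held 3 arginine methyltransferases. Prmt5, which methylates splicing proteins and histones symmetrically (chromosome 14, 54507182 to 54517470), had 399 and 398 CPM against 79.1 and 203 CPM, Prmt7, which adds single methyl groups, had 159.7 and 172 CPM against 33.5 and 83.3 CPM and Prmt3, which acts on a ribosomal protein, had 68.5 and 66.2 CPM against 19.1 and 34.1 CPM. TAK-931-1 was the lower treated library in each. The clock repressors Cry1 and Ciart were members, with 47.2 and 53.6 CPM against 19.2 and 21.96 CPM for Cry1 and 135 and 107 CPM against 12.6 and 50.2 CPM for Ciart, and Nr1d2 was the other lowered gene of the circadian list (3 of 18 genes, 16.7%, beside 6.63% over all genes). Tsc22d3, a glucocorticoid-induced leucine zipper protein, had 156 and 181 CPM against 72.2 and 78.8 CPM. Klf11, Meis1, Rfx2, Foxq1, Tcf24, Tfap4, Zbtb12, Zfp428, Phf7, Ing3 and Sap30 completed the role.

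DNA repair, replication and chromosome segregation contributed 11 members, and CDC7 acts in the second of these processes. Orc5, a subunit of the origin recognition complex that loads the MCM helicase (chromosome 5, 22486489 to 22550331), had 52.3 and 52.3 CPM in Vehicle-1 and Vehicle-2 and 21.5 and 22.02 CPM in TAK-931-1 and TAK-931-2. The treated libraries almost coincided at 0.412 and 0.421 of the vehicle mean. Oip5, a subunit of the complex that deposits the centromeric histone CENP-A (chromosome 2, 119609532 to 119618505), had 28.2 and 27.8 CPM against 7.35 and 9.46 CPM, and it overlaps Nusap1 on the other strand. H2afx, the histone variant phosphorylated at DNA breaks (chromosome 9, 44334715 to 44336073), had 153 and 162 CPM against 77.4 and 65.3 CPM.

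Rad51c, a protein of homologous recombination (chromosome 11, 87377607 to 87404954), had 26.9 and 22.4 CPM against 5.87 and 10.7 CPM, Fancc, of the Fanconi anaemia core complex (chromosome 13, 63304709 to 63431745), had 10.4 and 11.7 CPM against 4.44 and 3.21 CPM, and Pot1a, which caps telomeres (chromosome 6, 25743735 to 25809226), had 77.4 and 65.7 CPM against 22.3 and 32.9 CPM. In all 3 both treated libraries were well below the vehicle pair. Rad18, Alkbh2, Chd1l, Cenpi and Pbk were the other members of this role. Across whole lists, 10 of 84 genes of DNA damage checkpoint and repair were lowered (11.9%), 5 of 62 of the replication origin and fork list (8.1%) and 1 of 66 of the mitosis and spindle list (1.5%), beside 6.63% over all genes. The G1/S list had 1 of 31 lowered.

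Cell death, signalling and adhesion took in 21 members. Bbc3, which encodes the p53-induced BH3-only protein PUMA (chromosome 7, 16309583 to 16318334), had 72.3 and 66.5 CPM in Vehicle-1 and Vehicle-2 and 23.1 and 20.1 CPM in TAK-931-1 and TAK-931-2. It was lower in TAK-931-2 than in TAK-931-1, with a fitted log2 fold change of −1.69 (SE 0.24). Bmf, another BH3-only activator of apoptosis (chromosome 2, 118528757 to 118549678), had 35.9 and 44.03 CPM against 13.3 and 14.1 CPM, and Bik, lowered but outside the 150, was the other lowered gene of the BCL2 family list (3 of 27 genes, 11.1%). The p53 list had 3 of 33 lowered (9.1%), namely Bbc3, Sesn2 and Gadd45b. Over all genes the share was 6.63%. The BCL2 list's median log2 ratios were 0.08 in TAK-931-1 and 0.04 in TAK-931-2. In 7 of its genes both treated libraries lay below both vehicle libraries, and in 8 above both. For the p53 list the medians were −0.23 and −0.01, with 13 genes below both and 10 above both.

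Rhob, a small GTPase of endosomes and the cytoskeleton (chromosome 12, 8497759 to 8499985), had the highest CPM of the set, with 1508 and 1653 CPM in Vehicle-1 and Vehicle-2 and 441 and 685 CPM in TAK-931-1 and TAK-931-2. Per kilobase of exon it was also the highest, at 709.7 CPM per kb in the vehicle mean, ahead of H1f0 at 404 and H3f3b at 377. Dusp8, a phosphatase of stress-activated MAP kinases (chromosome 7, 142079487 to 142095284), had 29.2 and 23.1 CPM against 6.02 and 7.52 CPM. Acvr2b, an activin receptor, F2rl1, a protease-activated receptor, and Rragb, a Rag GTPase that signals amino acid supply to mTORC1, were members at lower levels, with 7.94 and 9.81 CPM against 3.68 and 3.88 CPM for Rragb. Arvcf, Cdh15, Ctnnal1, Dusp28, Fer, Glmn, Itfg2, Lancl2, Pard6a, Rasgrf2, Sh3yl1, Shf, Snx16 and Stxbp6 were the other members of the role.

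Glycosylation, the secretory pathway and ubiquitin gave 8 members and the cilium and centrosome 5. Uchl1, a deubiquitinase (chromosome 5, 66676121 to 66687234), had 72.02 and 77.9 CPM against 13.4 and 26.7 CPM, and Extl1, which acts in heparan sulfate synthesis (chromosome 4, 134356373 to 134372547), had 13.9 and 11.4 CPM against 2.76 and 4.37 CPM. Fut1, a fucosyltransferase, had 73.1 and 70.2 CPM against 5.105 and 29.4 CPM, which is 0.0712 and 0.4097 of the mean of the vehicle pair in TAK-931-1 and TAK-931-2. Ofd1 and Bbs7, genes of cilium assembly, had 29.3 and 28.6 CPM against 9.44 and 12.5 CPM for Ofd1 and 20.99 and 20.5 CPM against 5.105 and 9.64 CPM for Bbs7. Cep44, Ribc1 and Rmdn2 were the other cilium and centrosome members, and B3galt6, Bcap29, Dcaf17, Pigw and Tmed1 the other members of the secretory and ubiquitin role. The list of endoplasmic reticulum translocation, glycosylation and vesicle coat genes had 1 of 77 genes lowered (1.3%) and the unfolded protein response list 4 of 51 (7.8%), namely Atf4, Dnajb2, Creld2 and Herpud1, where the share over all genes was 6.63%. The latter list's median log2 ratio was −0.80 for TAK-931-1 and 0.02 for TAK-931-2.

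The remaining 30 members were given no role, and their median folds were 0.270 in TAK-931-1 and 0.453 in TAK-931-2. They were chiefly Riken and predicted genes, with Glrp1 (26.99 and 21.4 CPM against 3.57 and 7.34 CPM), Cryba4 (11.9 and 11.8 CPM against 2.96 and 4.37 CPM), Tmem238 (18.3 and 23.03 CPM against 3.98 and 6.79 CPM) and 1300002E11Rik (16.8 and 16.9 CPM against 6.23 and 6.43 CPM) among the leading 30. In 1300002E11Rik the treated values nearly coincided. Only 26 of the 150 members stood in any of the 39 function lists.

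Over all 39 lists, 6 exceeded 15% lowered genes, beside 6.63% over all genes. The amino acid and ATF4 list was followed by one-carbon and serine metabolism (5 of 23, 21.7%), the polyamine and methionine cycle (3 of 15, 20%), the tRNA synthetases, the telomere list (3 of 17, 17.6%) and the circadian clock. In the one-carbon list these were Cth, Ahcy, Shmt1, Mtrr and Mthfd2, and in the polyamine list Srm, Mtap and Mri1. Srm, which makes spermidine, had 502 and 504 CPM against 99.1 and 284 CPM. No gene was lowered in 6 lists, among them cytokines, chemokines and their receptors (0 of 30), whose median log2 ratios were 2.73 in TAK-931-1 and 1.08 in TAK-931-2.

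**Figure D3:**
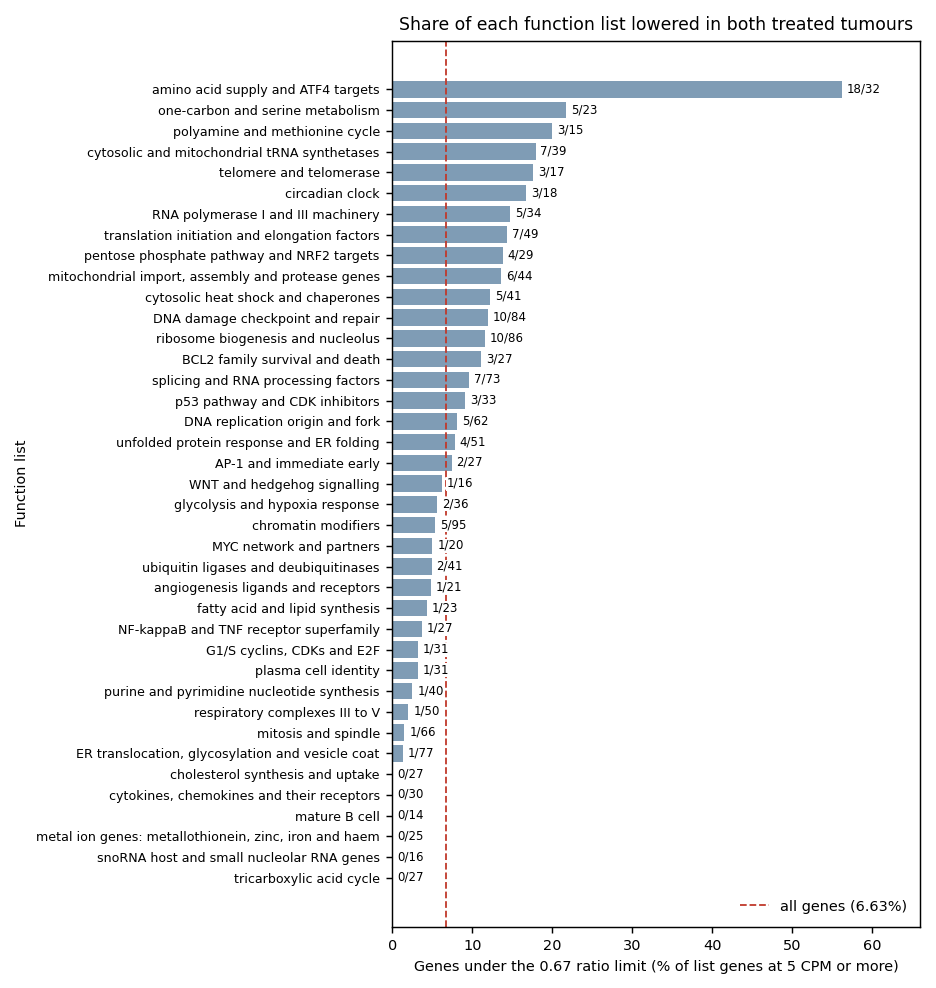
Share of the genes of each of the 39 function lists that met the 0.67 limit, in percent of the list's genes at 5 CPM or more in both vehicle libraries, with the counts beside each bar. The dashed line marks 6.63%, the share over all 9663 genes, and the amino acid supply and ATF4 list stands at 56.2%, with the next list at 21.7%.

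The treated tumours did not share the size of the change. Over the 150 members, the median fold of the vehicle mean was 0.248 in TAK-931-1 (range 0.0357 to 0.506) and 0.432 in TAK-931-2 (range 0.0542 to 0.520). TAK-931-2 was the higher treated library in 136 members (90.7%), where this held for 89.5% of the 641 lowered genes and 62.5% of the 9663 genes. This order turned over when the members were set over plasma cell and J558 markers, a scaling chosen after the data were seen, where the median fold was 0.634 for TAK-931-1 against 0.372 for TAK-931-2. In CPM, below 0.25 of the vehicle mean lay 76 members in TAK-931-1 and 5 in TAK-931-2. The treated libraries were within 1.2-fold of each other in 33 of the 150 members, beside 2174 of the 9663 genes. They were over 2-fold apart in 45 of the 150, beside 2560 of the 9663, so neither count sets the members apart. Bbc3, H2afx, Orc5, Coq3, Pdf and Bmf were among the 33 members, and Asns, Cth, Chac1, Fut1 and Prmt5 among the 45. Without TAK-931-2 the rule called 3404 genes lowered (35.23%) in place of 641 (6.63%). On chromosome 12 it then called 183 (53.04%) in place of 45 (13.04%). Without TAK-931-1 it called 845 genes (8.74%).

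By contrast, the vehicle pair differed by a median of 1.09-fold over the members and by 1.49-fold at most. Vehicle-1 was the higher in 93 members (62.0%), in 53.7% of the 641 lowered genes and in 48.8% of the 9663 genes. The genes of the ATF4 pathway were among those with Vehicle-1 higher, namely Trib3, Chac1, Adm2, Slc7a11, Slc6a9, Asns, Cth, Atf5 and Stc2.

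**Figure D4:**
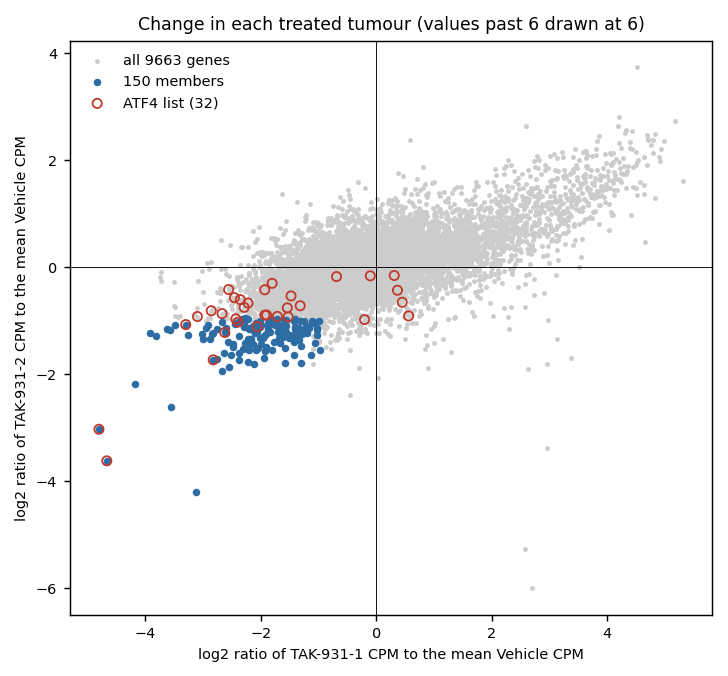
Log2 ratio of the CPM of each gene to its mean vehicle CPM, TAK-931-1 on the horizontal and TAK-931-2 on the vertical axis, for 9663 genes (grey), the 150 members (filled blue) and the 32 genes of the amino acid supply and ATF4 list (red rings). The members extend further along the horizontal axis, with medians of −2.01 and −1.21, and 4 ringed genes lie right of 0 on the horizontal axis and below 0 on the vertical axis.

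Markers of cell types moved with the treated libraries and are set beside these values. Summed CPM stood at 14.9 times the vehicle mean in TAK-931-1 and 2.93 times in TAK-931-2 for 14 monocyte and macrophage markers, at 17.2 and 3.30 times for 9 natural killer cell markers and at 7.29 and 2.64 times for 10 fibroblast markers. Muscle markers stood at 8.16 and 0.207 times. The 150 members summed to 12347 and 12085 CPM in the vehicle libraries and to 3076 and 4986 CPM in TAK-931-1 and TAK-931-2, which is 0.252 and 0.408 times the vehicle mean. No marker of the T cell, monocyte and macrophage, dendritic cell, fibroblast or endothelial lists was at 0 in any library. The part of these cells in the members' values was not tested.

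Because plasma cell and J558 markers were lower in TAK-931-1 and not in TAK-931-2, the members were also set over these markers. The geometric mean of the 14 markers was 0.392 and 1.16 times that of the vehicle pair in TAK-931-1 and TAK-931-2. Over it, the summed members stood at 0.643 and 0.351 times the vehicle mean and the 18 lowered genes of the ATF4 list at 0.543 and 0.448 times, so TAK-931-2 was the lower of the pair in both. With this scaling 124 members lay under the vehicle mean in TAK-931-1 and all 150 in TAK-931-2. The count for TAK-931-2 was fixed by the choice of genes. No member there exceeded 0.520 of the vehicle mean in CPM, and the markers stood at 1.16. With the scaled values the rule called 177 genes (1.83%), of which 72 were members, and 15 of the 32 genes of the ATF4 list (46.9%).

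**Figure D5:**
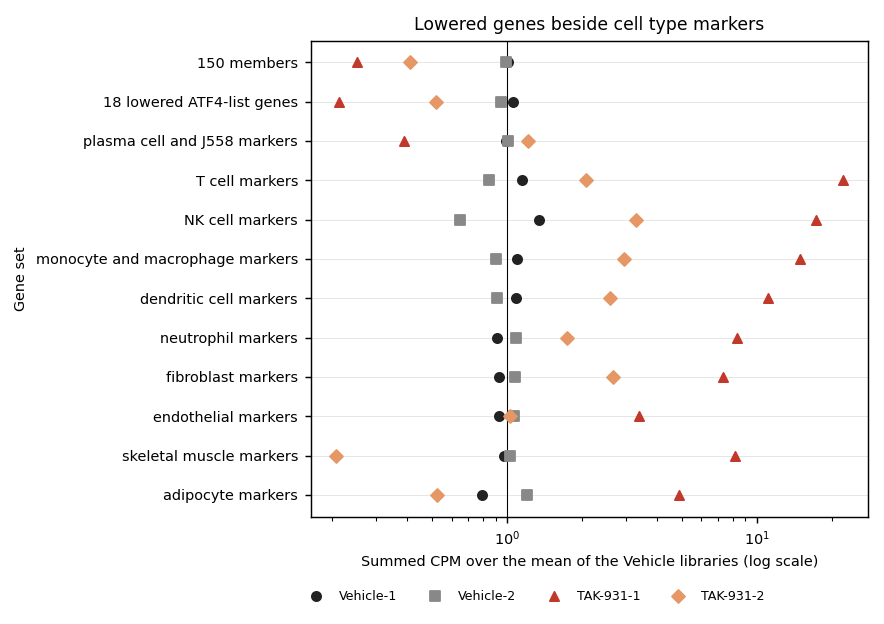
Summed CPM of the 150 members, of the 18 lowered genes of the ATF4 list and of 10 cell type marker lists, divided by the mean of the vehicle libraries, on a log axis, 1 symbol per library. The members lie left of the line at 1 in both treated libraries (0.252 and 0.408), plasma cell and J558 markers only in TAK-931-1 (0.388), and the T cell, natural killer, myeloid and fibroblast lists lie right of it in both.

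The members had lower counts and shorter exons, by their medians, than all genes at 5 CPM. Their median vehicle CPM was 29.1 against 43.5 over the 9663 genes, and their median exon length was 2105 bases against 2991. Per kilobase, the medians were 10.8 and 14.4 CPM per kb. The 641 lowered genes had medians of 41.0 CPM, 2241 bases and 18.7 CPM per kb. The lower level was thus seen in the 150 and not in lowered genes as a whole. The members' exons overlapped a gene on the other strand in 16 cases, which include Mettl5, Oip5, Uchl1, Atf5, Slc6a9 and Wdr12, and the values of these genes are uncertain because the counting setting for strand was not given in the sources used here.

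Members came from every autosome and the X chromosome. Chromosome 12 held 15 of them, 4.35% of its 345 genes at 5 CPM, and 45 of its genes were lowered (13.04%, beside 6.63% of all genes). The members there were Dio3, Acot4, Acot2, Ifrd1, Rhob, Klf11, Mboat2, Stxbp6, Sh3yl1, Ttc32, Rd3l, Angel1, Bcap29, BC022687 and 4930447C04Rik. They lay between positions 8497759 and 112816245, with at least 44504 bases between neighbours. The median log2 ratio of all genes of the chromosome was −0.67 for TAK-931-1 and −0.12 for TAK-931-2, beside −0.30 and −0.03 over the 9663 genes. Chromosomes 16 and 18 had like medians in TAK-931-1, at −0.70 and −0.61, with 9.48% and 6.15% of their genes lowered. Scaled to the plasma cell and J558 markers, 11 of 344 genes of chromosome 12 were lowered (3.2%, beside 1.83%).

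Promoter windows were matched for 121 members. Their GC content was 60.7%, beside 61.1% over the 7477 genes with a window. The E-box CACGTG stood in 24 members (19.83%) and in 12.61% of the 7477 genes, and the members with it included Bbc3, Cry1, Ciart, Klf11, Polr2h, Rcor2 and Prmt3. The cyclic AMP response element TGACGTCA stood in 10 (8.26% beside 3.97%), among them Dusp8, Gemin6, Orc5, Pot1a and Rad51c. The GC box GGGCGG stood in 61.98% beside 71.94%, and the ETS core CCGGAAGT in 5.79% beside 10.54%. The hypoxia motif ACGTGC, found in 17.36% beside 10.12%, can overlap the E-box by its letters ACGTG, as in CACGTGC. These shares describe letters in 300-base windows and carry no test.

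At the edge of the set, the last members were Nop58 (ratio 0.5215), Cdh15 (0.5216) and Fam136a (0.5229). The first genes left out were Bag2 (0.523), Depdc1b (0.5238) and Amica1 (0.5246). Fam136a had 159.7 and 158 CPM against 32.9 and 82.7 CPM and Bag2 8.94 and 7.42 CPM against 3.88 and 3.34 CPM. At the 0.67 limit itself, Bpnt1 and Ttc19 (both 0.6696) and Timm10 (0.6697) were inside and Gm4737 (0.67, above the limit before rounding), Mars (0.6701) and D2hgdh (0.6703) were outside. No gap in the ratio marks either edge. A ratio of 0.5 or less was reached by 108 genes.

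To set these values beside the whole table, TAK-931 was compared with vehicle by edgeR's quasi-likelihood test over 13669 genes. At an adjusted p under 0.05 no gene was lower (0.0%), members included, and 896 genes were lower at an unadjusted p under 0.05 (6.55%). DESeq2 called 152 genes lower at its adjusted p under 0.05 (1.11%), 104 of them members, and limma-voom called 0. The members' median log2 fold change by edgeR was −1.28 without TAK-931-1 and −1.99 without TAK-931-2. Such fits take the lone treated library to vary as the vehicle pair does. The biological coefficient of variation was 0.436. The members' median fitted log2 fold change was −1.55, beside 0.02 over all genes tested, and since the same 4 libraries chose the members nothing is read from either value.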

How the data were processed

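Bulk RNA sequencing of 4 whole J558 allografts, 2 from vehicle-treated and 2 from TAK-931-treated mice, was examined. Per the submitters' processing notes, STAR 2.6.1c and featureCounts were used with the mm10 genome. The authors deposited raw read counts per gene for each library, with no normalization, and a column of another unit that holds gene lengths in bases, summed over exons. The annotation release and the strand setting were not given in the sources used here. Small counts were mostly even (17.9% to 23.9% of counts from 1 to 20 were odd), so both mates of a pair appear to be counted singly and counting error is larger than the counts imply. The study plots tumours of individual mice and names the first allograft of each group among those sequenced, so each library was taken as 1 mouse; for the second libraries this rests on their numbers.

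CPM was the count over the column sum times 1e6, and the set was chosen by the rule given above. The members, gene lists and comparisons were chosen with earlier results of these data known. The named genes were the 30 members with the smallest ratio, up to 4 members of each function list and 10 members overall with the highest mean vehicle CPM, the 3 genes on either side of the limit, and Cdc7 and Mcm2 as controls. Other genes named, and the roles under which members are grouped, were chosen after their values were seen. A marker list is summed as CPM, and folds of single libraries are ratios to the mean vehicle CPM.

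Across all genes, edgeR 4.0.16 (R 4.3.3) was run with filterByExpr (minimum count of 10), TMM scaling, robust quasi-likelihood fits with treatment as the only term, a two-sided test and Benjamini-Hochberg adjustment at 0.05. Alternatives were other low-count filters, size factors by the median of ratios, unscaled library sizes, ratio limits of 0.5 and 0.8, a replicate block, each library left out, DESeq2 1.42.0, limma-voom (limma 3.58.1) and, added after the data were seen, scaling to 14 plasma cell and J558 markers. The rule and the test were tested on simulated data. Promoter windows came from RefSeq (GRCm38.p6), matched by symbol for 121 of 150 members. A few genes that count in the totals are not reported here by name.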

Additional observations from a re-analysis of the deposited data

How the results depend on the processing

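With 2 libraries per group the spread within the treated group limits every value. At least 10 CPM kept 121 of the 150 members and a ratio limit of 0.5 kept 108. Leaving out a library or lowering the CPM limit can remove no member, by the construction of the rule. The 641 lowered genes became 108 at a limit of 0.5, 1631 at 0.8 and 177 when scaled to plasma cell and J558 markers. Leaving out 1 library gave 845 to 3404 lowered genes, the highest without TAK-931-2. The 18 lowered genes of the amino acid and ATF4 list became 5 at a limit of 0.5 and 19 to 26 with 1 library left out. Lowered genes of chromosome 12, 45 in all, became 12 at 0.5, 90 at 0.8 and 11 with marker scaling, and 48 to 183 with 1 library left out (183 without TAK-931-2). Lowered genes in the function lists, 118 in all, became 19 at 0.5, 321 at 0.8 and 43 with marker scaling, and 141 to 728 with 1 library left out (728 without TAK-931-2). Over all genes the share lowered was 6.63%. It became 1.12% at 0.5, 16.88% at 0.8, 1.83% with marker scaling and 35.23% without TAK-931-2. On chromosome 12 these 4 shares were 3.48%, 26.09%, 3.2% and 53.04%, beside 13.04% by the main rule. Genes called lower at an adjusted p under 0.05 were 0 by edgeR, 152 by DESeq2, 3 with a replicate block in edgeR, and 0 to 4327 with 1 library left out, with 2237 without TAK-931-1 and 4327 without TAK-931-2, where the lone treated library is assumed to vary like the vehicle pair. The members' median log2 fold change lay between −1.99 and −1.28 when 1 library was left out. The labels give same-numbered libraries nothing in common but a number, and no pairing was assumed. Their deviations correlated at 0.0041 over genes. This single value cannot show whether same-numbered libraries shared a batch. With the block the median was −1.61. Of the fitted changes of 52 named genes, 559 values under alternatives moved by less than the replicate spread and 12 by more. Their direction was fixed by the choice of genes and is no sign of stability. The causes of these shifts were not tested. Halved counts were not run, since they leave CPM as it is.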
